A study of Homo sapiens with 12 samples.

Results

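Leader cells were compared with invasive photoconverted cells on 6 of the 12 arrays of the series, 3 arrays for each group. The cells came from the H1299 line of human non-small cell lung cancer, and all of them stably carried Dendra2, a fluorophore that changes its emission from green to red when it is illuminated. Spheroids invaded Matrigel, single cells were illuminated under the microscope, and red cells were then sorted in wells of 10 cells for amplification of their RNA. A leader cell was the first cell of an invading chain, whereas invasive photoconverted cells were invading cells that had been photoconverted as a control, and neither the labels nor the methods say where in a chain they lay. The other 6 arrays held follower cells, which trailed behind a leader, and invasive cells that had not been photoconverted. The comparison therefore asked which transcripts differed between the front cell and these control cells when both had been photoconverted and sorted. All 14884 genes with a symbol in the annotation used here entered it, each through its brightest probeset. Nothing in the labels or methods ties the wells to separate cultures, and p-values then reflect only how far these samples varied, which may be technical.

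Collective invasion is the movement of tumour cells as a connected group, in which front cells remodel the matrix and those behind keep contact with them. Signals known from blood vessel sprouting, where a tip cell leads and stalk cells follow, include VEGF and its receptors and the Notch receptors with their ligands. MicroRNAs, which return several times below, are short RNAs cut from a hairpin that often lies inside a longer gene; the seed, near the 5′ end, pairs with target messages.

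No gene was called between leader and invasive photoconverted cells (limma with Benjamini-Hochberg adjustment over 14884 genes, threshold 0.05, 0% called). The smallest adjusted p, 0.2483, belonged to PRTFDC1. At an unadjusted p under 0.05, 265 genes were higher in leader cells (1.78%) and 315 were lower (2.12%). The 3 leader values all lay above the 3 photoconverted values for 746 genes (5.01%) and all below them for 674 genes (4.53%). The methods' t-test, run on the same values, gave 653 genes at an unadjusted p under 0.05 and 0 after adjustment. Every single gene described below is thus a ranked value and not a call.

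Most genes had low values, with quartiles of the mean log2 level at 2.64 and 3.22 over all genes, and the median standard error of a difference was 0.258 on the log2 scale. Between 94 and 151 genes lay above a log2 level of 6 on the leader arrays, against 103 to 186 on the photoconverted arrays. Leader arrays correlated with each other across genes at 0.637 to 0.692, photoconverted arrays at 0.71 to 0.728, and leader with photoconverted arrays at 0.667 to 0.723. Among markers of the line, VIM had log2 levels of 4.15 to 6.48 in leader cells and 5.26 to 6.84 in photoconverted cells. KRT18 was at 3.84 to 4.26 in leader cells and 3.37 to 4.31 in photoconverted cells. EPCAM was near the floor in both groups, at 2.36 to 2.62 in leader cells and 1.99 to 2.66 in photoconverted cells. KRT7 was also low, at 2.40 to 2.90 in leader cells and 2.31 to 2.52 in photoconverted cells. The 4 lung lineage markers measured had means of 2.24 to 3.11 in leader cells and 2.21 to 3.13 in photoconverted cells. These values do not by themselves identify the line. The defining endothelial marker PECAM1 had log2 levels of 3.13 to 3.22 in leader cells and 3.20 to 3.22 in photoconverted cells, and of the 6 endothelial markers measured CLDN5 alone had an unadjusted p under 0.05, at a low level of 2.93 to 3.09 in leader cells and 2.14 to 2.47 in photoconverted cells.

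**Figure D1:**
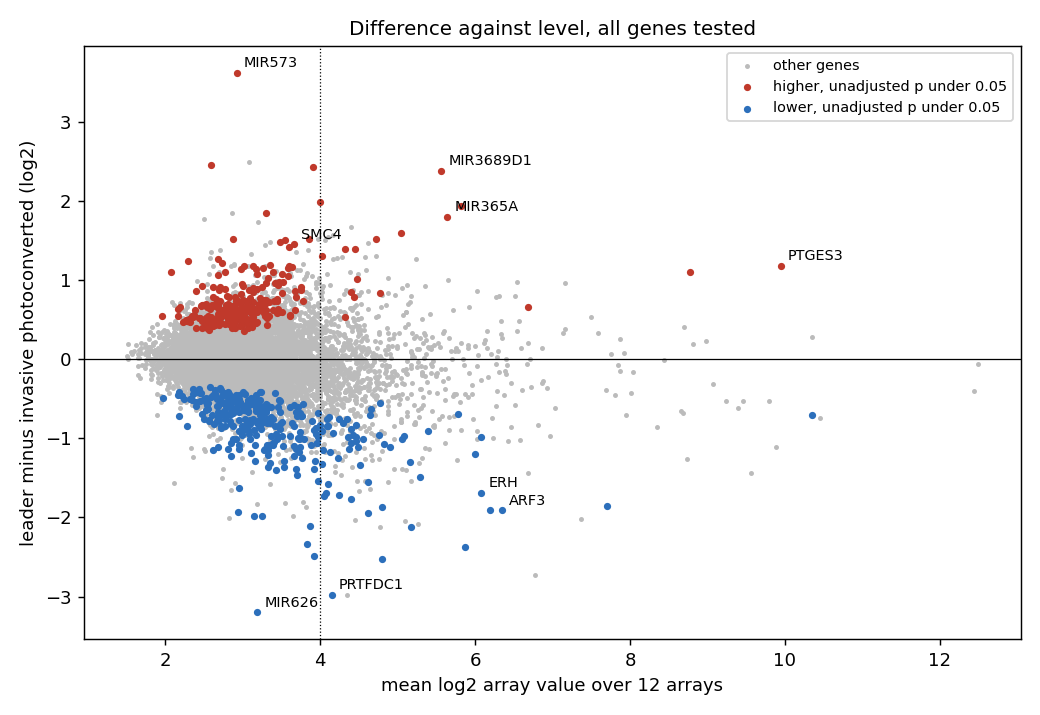
Difference in log2 value between leader and invasive photoconverted cells (y axis) against the mean log2 level over 12 arrays (x axis) for 14884 genes, with genes at an unadjusted p under 0.05 in colour and a dotted line at a level of 4. Right of that line 16 coloured genes are higher and 56 are lower, and none passed the adjusted test.

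PRTFDC1, a relative of the purine salvage enzyme HPRT1, headed the ranking. Its log2 values were 2.22, 3.31 and 2.77 on the leader arrays, against 6.02, 5.96 and 5.25 on the photoconverted arrays. The groups did not overlap, and the leader mean was lower by a log2 difference of -2.98 (standard error 0.42), a fold of 7.86. The gene was also low on the follower arrays, with 2.24, 3.59 and 2.86, and high on the non-photoconverted arrays, with 4.46, 5.47 and 5.64. All leader and follower values thus lay below all values of both kinds of invasive control cells, but its adjusted p was 0.2483 here and 0.3778 for follower minus photoconverted cells in limma, and these comparisons share the photoconverted arrays. Leaving out each array in turn gave differences between -3.25 and -2.70.

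The other 11 lower genes of the ranking covered RNA handling, protein modification, lipid and sugar synthesis and the membrane. ERH, a small conserved protein tied to RNA processing, had log2 values of 4.96, 4.92 and 4.73 in leader cells, against 6.14, 7.47 and 6.06 in photoconverted cells. RBM42, an RNA-binding protein of splicing complexes, had 3.41, 3.19 and 3.29 in leader cells, against 4.59, 4.11 and 4.01 in photoconverted cells. For both genes the leader arrays were also below all follower and all non-photoconverted arrays, so leader cells were the lowest of the 4 groups. PCBP2, which binds C-rich RNA, and the ribosomal protein gene RPL14 were lower by -1.10 (standard error 0.27) and -0.96 (standard error 0.24) on the log2 scale. GTF3A, the factor for 5S ribosomal RNA transcription, was at 4.0, 3.90 and 3.90 in leader cells, against 4.78, 4.47 and 4.83 in photoconverted cells, a small but tight difference of -0.76.

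Enzymes of synthesis and modification formed the next part of the lower genes. CMAS, which activates sialic acid for the glycans of the cell surface, had log2 values of 3.90, 4.20 and 3.67 in leader cells, against 6.23, 5.81 and 6.07 in photoconverted cells. MSMO1, a sterol oxidase of cholesterol synthesis, had 2.27, 2.58 and 2.48 in leader cells, against 4.25, 5.82 and 4.71 in photoconverted cells. The leader arrays were the lowest 3 of the 12 for MSMO1 and, for CMAS, lay below every array of the other groups. NAE1, a subunit of the enzyme that starts NEDD8 conjugation, had 2.67, 2.59 and 3.74 in leader cells, against 4.63, 4.72 and 4.85 in photoconverted cells. For NAE1 the value of leader replicate 3 overlapped the follower values of 3.82, 4.56 and 2.97, and the non-photoconverted mean of 4.71 was close to the photoconverted mean of 4.73.

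For 3 lower genes the 2 kinds of invading cells differed from each other as well, at an unadjusted limma p under 0.05. PAK1IP1, a factor of ribosome assembly, was at 3.30, 3.0 and 2.89 in leader cells and 4.24, 4.53 and 4.53 in photoconverted cells, but at 2.97, 3.27 and 2.82 in non-photoconverted cells. The leader values of PAK1IP1 therefore overlapped the non-photoconverted ones. CD2AP, an adaptor between membrane receptors and actin, was at 3.60, 4.12 and 3.14 in leader cells and 4.79, 5.85 and 5.49 in photoconverted cells, with a non-photoconverted mean of 4.12. MYOF, a ferlin of membrane repair, was higher still in non-photoconverted cells, with a mean of 3.31 ± 0.25 in leader cells, 4.16 ± 0.26 in photoconverted cells and 5.13 in non-photoconverted cells (SD, n = 3 each). The unadjusted p for photoconverted minus non-photoconverted cells in limma was 0.0005391 for PAK1IP1, 0.01259 for CD2AP and 0.0006185 for MYOF. MYOF was called for leader minus non-photoconverted cells (limma adjusted p = 0.03382), a comparison that shares the leader arrays with this one.

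**Figure D2:**
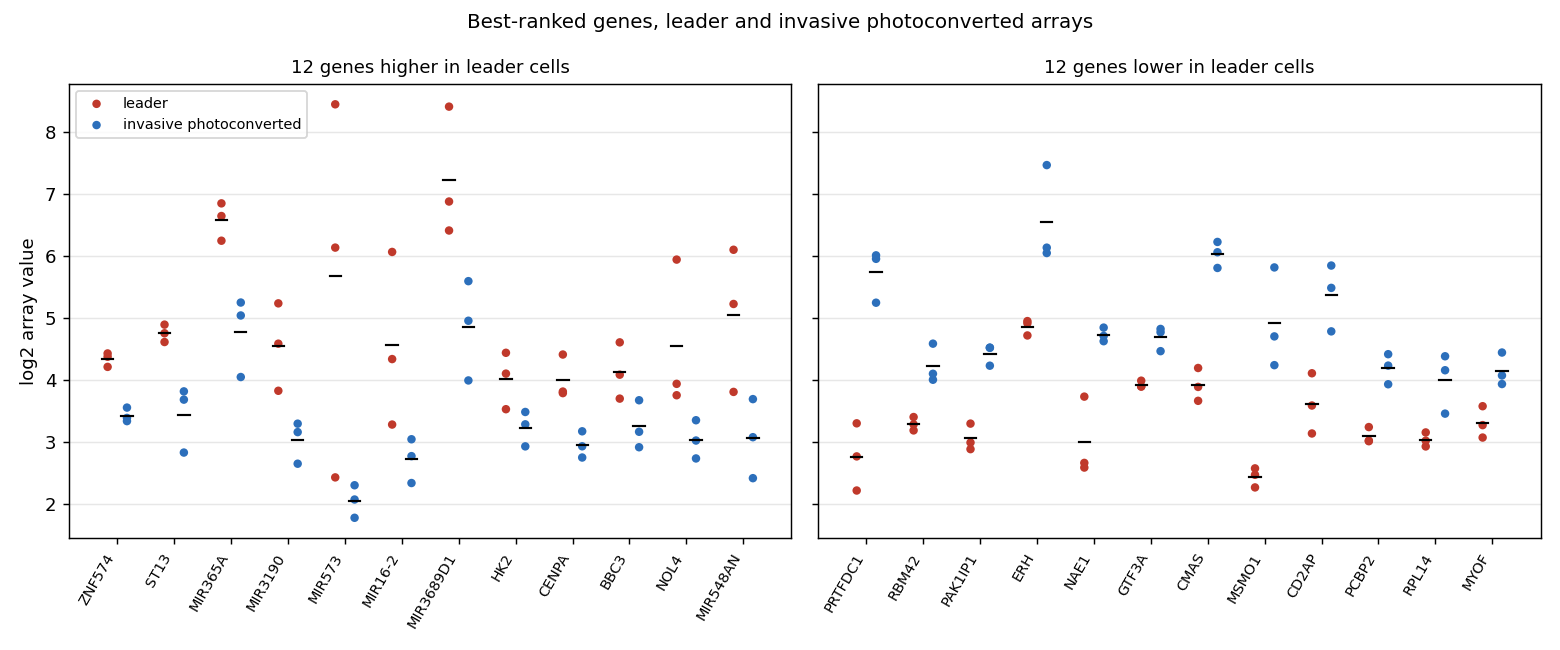
Log2 array values (y axis) of the 12 higher and 12 lower genes of the ranking, with leader arrays left and invasive photoconverted arrays right of each name, 1 point per array and a bar at the mean of 3. The genes were selected for groups that do not overlap, so the separation was set by the choice; PRTFDC1, CMAS and MSMO1 have wide gaps and MIR573 the widest spread, at 2.44 to 8.45 in leader cells.

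Among the 12 higher genes, 6 were protein-coding and 6 were microRNA hairpins. ZNF574, a zinc finger protein, had log2 values of 4.38, 4.22 and 4.44 in leader cells, against 3.40, 3.56 and 3.34 in photoconverted cells. ST13, a co-chaperone of HSP70, had 4.90, 4.62 and 4.76 in leader cells, against 2.84, 3.82 and 3.69 in photoconverted cells. For both genes all leader values also lay above every follower and every non-photoconverted value, which makes leader cells the highest of the 4 groups. NOL4, a nucleolar protein gene, had 5.95, 3.94 and 3.76 in leader cells, against 3.36, 2.74 and 3.03 in photoconverted cells, and the value of leader replicate 1 set much of that difference, which was 0.81 on the log2 scale without it and 1.51 with it.

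For the remaining higher protein-coding genes, other groups matched the leader level. HK2, the hexokinase of the first step of glycolysis, was at 4.11, 3.54 and 4.45 in leader cells and 3.49, 3.29 and 2.94 in photoconverted cells, but at 3.91, 4.21 and 3.81 in non-photoconverted cells. CENPA, which marks the centromere, had a mean of 4.01 ± 0.35 in leader cells and 2.96 ± 0.21 in photoconverted cells (SD, n = 3 each), and 3.98 in follower cells. BBC3, the pro-apoptotic protein PUMA, had 4.61, 4.09 and 3.71 in leader cells, against 3.17, 2.92 and 3.68 in photoconverted cells, and a mean of 4.39 in follower cells. The unadjusted limma p for photoconverted minus non-photoconverted cells was 0.01211 for HK2 and 0.03113 for ST13, so the invading groups differed from each other for these as well, at a p without adjustment. For CENPA and BBC3 the leader and follower values overlapped.

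All genes of the ranking other than PRTFDC1, 23 in number, had a limma adjusted p of 0.9997. By rank of p alone, GID8, a ubiquitin ligase subunit, came next after PRTFDC1 and RBM42, with 3.38, 3.86 and 4.17 in leader cells and 2.45, 2.78 and 2.61 in photoconverted cells, but its level stayed under the minimum of 4 and its non-photoconverted mean was 3.89. The receptors GPR37 and FOLR1, at ranks 9 and 13 by p, differed by 1.14 (standard error 0.25) and 0.78 (standard error 0.18), also with leader means under 4. These 3 genes were picked out after their values were seen.

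The microRNA hairpins were set apart because they took 6 of the 12 places. Their mature sequences, from RefSeq on GRCh38.p14, show which microRNA each hairpin gives, with seed bases 2 to 8 in capitals; MIR15B and MIR626 are added since they share a locus or a pattern described below. Of the 1072 hairpins tested, 998 had an entry in that table.
hsa-miR-573 (MIR573, chr4:24520252-24520275, minus strand): cUGAAGUGauguguaacugaucag
hsa-miR-365a-3p (MIR365A, chr16:14309340-14309361, plus strand): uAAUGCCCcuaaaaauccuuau
hsa-miR-3190-3p (MIR3190, chr19:47226988-47227010, plus strand): uGUGGAAGguagacggccagaga
hsa-miR-3689d (MIR3689D1, chr9:134849660-134849681, minus strand): gGGAGGUGugaucucacacucg
hsa-miR-548an (MIR548AN, chrX:106639828-106639847, plus strand): aAAAGGCAuugugguuuuug
hsa-miR-16-5p (MIR16-2, chr3:160404754-160404775, plus strand): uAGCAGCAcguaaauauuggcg
hsa-miR-15b-5p (MIR15B, chr3:160404607-160404628, plus strand): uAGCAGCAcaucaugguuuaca
hsa-miR-626 (MIR626, chr15:41691645-41691663, plus strand): aGCUGUCUgaaaaugucuu
Of these, hsa-miR-16-5p and hsa-miR-15b-5p share the seed AGCAGCA, and no other pair does. The array measured RNA from the hairpin's locus and cannot tell a primary transcript from a hairpin or a mature microRNA.

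MIR573 had the largest difference of all genes tested, 3.62 on the log2 scale (standard error 1.06). Its log2 values were 8.45, 6.14 and 2.44 in leader cells, against 1.78, 2.08 and 2.31 in photoconverted cells. The signal came from leader replicates 1 and 2, since replicate 3 was close to the highest photoconverted value, and no follower or non-photoconverted array exceeded 2.19. With leader replicate 1 left out, MIR573 differed by 2.23. With leader replicate 3 left out it differed by 5.24 and was called (limma adjusted p = 0.01732).

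MIR365A and MIR3689D1 were bright in every leader array. MIR365A had log2 values of 6.65, 6.25 and 6.86 in leader cells, against 5.26, 5.05 and 4.05 in photoconverted cells, with a follower mean of 5.98 in between. MIR3689D1 had 8.42, 6.42 and 6.89 in leader cells, against 4.0, 4.96 and 5.60 in photoconverted cells. Both microRNAs have a second hairpin that gives a mature form with the same seed. MIR365B differed by 0.20 (standard error 0.27), at 3.03, 3.83 and 3.28 in leader cells and 2.82, 3.06 and 3.65 in photoconverted cells, and MIR3689D2 by 1.13 (standard error 0.79), at 3.52, 5.29 and 3.33 in leader cells and 3.02, 2.86 and 2.87 in photoconverted cells. MIR193B, the neighbour of MIR365A, differed by -0.35 (standard error 0.39), so the neighbour did not share the direction of MIR365A.

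The microRNAs of the SMC4 gene shared its pattern over the arrays. SMC4 encodes a core subunit of condensin, which compacts mitotic chromosomes, and both MIR15B and MIR16-2 lie within it. SMC4 had log2 values of 3.19, 6.47 and 4.12 in leader cells, against 3.37, 2.92 and 3.12 in photoconverted cells. MIR16-2 had 3.29, 6.07 and 4.34 in leader cells, against 2.78, 2.34 and 3.05 in photoconverted cells, and MIR15B had 1.74, 7.51 and 3.87 in leader cells, against 2.38, 1.67 and 1.70 in photoconverted cells. All 3 were highest on leader replicate 2, next on leader replicate 3 and at the level of the other groups on leader replicate 1. The differences were 1.46 (standard error 0.63), 1.84 (standard error 0.57) and 2.46 (standard error 1.03) for SMC4, MIR16-2 and MIR15B, and without leader replicate 2 they were 0.52, 1.09 and 0.89 in the same order. MIR16-1, whose hairpin at another locus gives the same mature hsa-miR-16-5p, differed by 0.22 (standard error 0.21), at 2.08, 2.39 and 2.35 in leader cells and 2.08, 2.06 and 2.02 in photoconverted cells. Of the 6 other hairpins tested whose mature form has the seed AGCAGCA, MIR15B was the only 1 with an unadjusted p under 0.05.

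A hairpin and the gene around it also shared their pattern at 3 further loci, which were singled out after the values were seen. The gene around a hairpin was found by position alone, and strand was not compared. A hairpin so placed need not be part of that gene's transcript. MIR3190 lies within BBC3 and had log2 values of 5.24, 4.59 and 3.83 in leader cells, against 3.30, 2.66 and 3.17 in photoconverted cells; both it and BBC3 were as high in follower cells, where MIR3190 had 5.62, 4.73 and 4.13. It is covered by 3 probesets, and 2 of them were higher in leader cells. MIR548AN lies within RADX, a single-stranded DNA binding protein of replication forks. MIR548AN had 6.11, 5.23 and 3.81 in leader cells, against 2.42, 3.70 and 3.08 in photoconverted cells, and RADX had 4.43, 3.78 and 2.94 in leader cells, against 2.72, 2.80 and 2.89 in photoconverted cells. Leader replicate 1 was the highest of the 12 arrays for both.

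MIR626 and MGA were the pair of these loci that was lower in leader cells. MGA, a partner of MAX in transcriptional control, encloses MIR626. MIR626 had log2 values of 2.49, 2.15 and 1.82 in leader cells, against 1.93, 6.16 and 7.97 in photoconverted cells, and MGA had 2.62, 2.46 and 2.37 in leader cells, against 2.93, 4.79 and 5.68 in photoconverted cells. The higher values were confined to photoconverted replicates 2 and 3, and photoconverted replicate 1 lay with the other groups. Without photoconverted replicate 1, MIR626 and MGA were called (limma adjusted p = 0.006767 for both), as were CLC, which encodes the galectin of Charcot-Leyden crystals, and the non-coding LINC00623 (adjusted p of 0.009217 and 0.02687). CLC had 2.73, 2.30 and 2.95 in leader cells and 2.97, 4.97 and 4.93 in photoconverted cells. LINC00623 had 3.67, 3.36 and 3.70 in leader cells and 3.28, 6.15 and 7.62 in photoconverted cells. All 4 genes were high on photoconverted replicates 2 and 3. A call without photoconverted replicate 1 rests on those 2 arrays, so the choice of genes set this shared pattern.

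**Figure D3:**
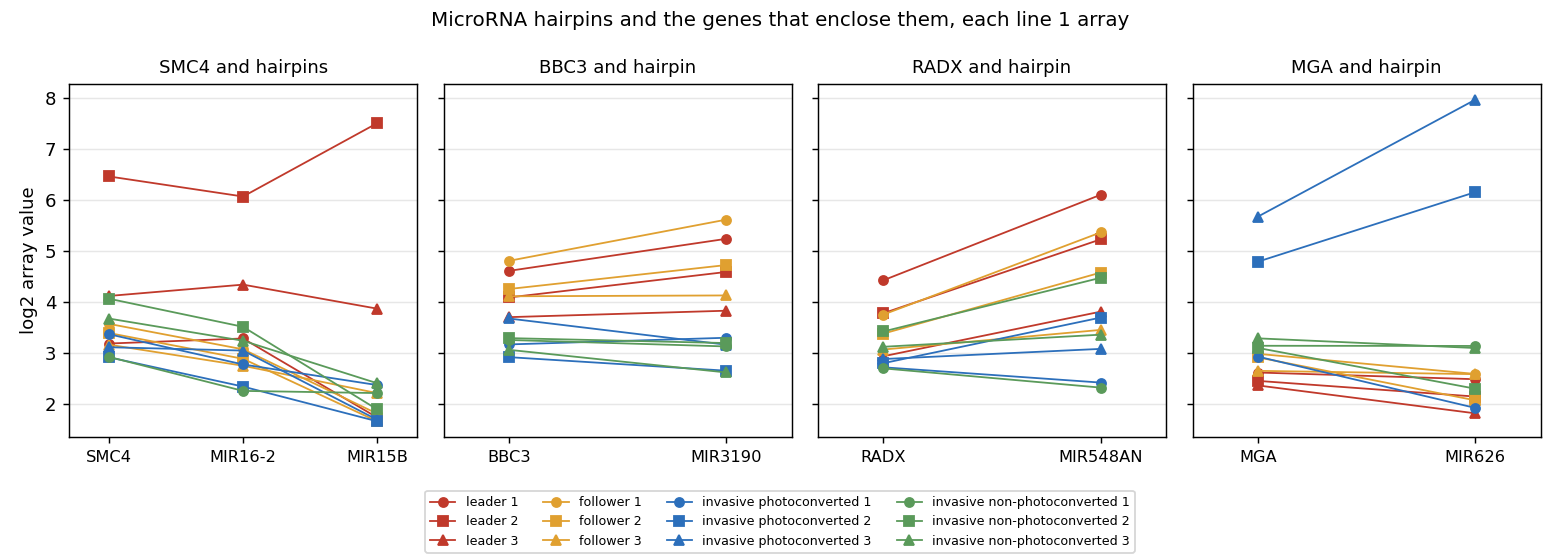
Log2 array values (y axis) of microRNA hairpins and of the genes that enclose them (x axis), each line 1 of the 12 arrays, coloured by group and with a marker shape for the replicate number. Lines run together within a locus: leader replicate 2 is at 6.47, 6.07 and 7.51 in the SMC4 panel, and photoconverted replicates 2 and 3 stand apart in the MGA panel.

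Over all hairpins the counts lay near the shares over all genes, except for fewer hairpins wholly below. At an unadjusted p under 0.05, 25 of 1072 hairpins were higher (2.33%, against 1.78% of all genes) and 18 lower (1.68%, against 2.12%). The median difference was 0.0057 over the hairpins and 0.0022 over all genes. The leader values lay wholly above the photoconverted values for 65 hairpins (6.06%, against 5.01% of all genes) and wholly below for 27 (2.52%, against 4.53%). Leaving out single arrays of these groups changed those counts to between 100 and 142 above and between 61 and 88 below, as fewer values separate more easily. Without photoconverted replicate 2 they were 100 above and 88 below, and without leader replicate 2 they were 103 and 84. More hairpins lay above than below in each of these settings, but the size of the imbalance depended on single arrays. The matching shares over all genes were not counted with arrays left out, so these counts have no background beside them. Of the 43 hairpins at an unadjusted p under 0.05, 20 lay within another measured gene, and 19 of these pairs had the same sign of difference, against 68.6% of the 430 pairs of hairpins and enclosing genes tested. In 5 of the 20 pairs, from 4 enclosing genes, the enclosing gene had an unadjusted p under 0.05 in the same direction. These pairs were formed without regard to strand, so some hairpins may lie opposite to the enclosing gene. The probes' positions were not used here, and shared probes between a hairpin and its enclosing gene were not tested.

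Genes with a mean level of at least 4 were split unevenly, with 16 of 955 higher (1.68%) and 56 lower (5.86%) at an unadjusted p under 0.05. With cyclic loess normalization the split was 38 higher and 56 lower, but with median centring it was 15 and 56. A fit of only the 6 arrays compared gave 29 higher and 75 lower. Without photoconverted replicate 2 the split was 15 higher and 34 lower. The share of higher genes thus varied with the normalization, the fit and the arrays used. PTGES3, the HSP90 co-chaperone p23, was an exception to the lower majority, at 10.42, 10.29 and 9.88 in leader cells, against 9.21, 9.48 and 8.35 in photoconverted cells. It was picked after its values were seen, and its non-photoconverted mean was 9.92.

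The gene lists were described by counts, because no list member was called, beside the shares over all genes of 1.78% higher and 2.12% lower at an unadjusted p under 0.05. Splicing factors and snRNP proteins, which cut introns from messages, had 52 members measured, of which 1 was higher (1.92%) and 6 lower (11.5%) at an unadjusted p under 0.05. The leader values of 10 of the 52 lay wholly below the photoconverted values, against 4.53% of all genes. By mean alone, 21 of the 52 were higher in leader cells and 31 were lower. Their median difference was -0.11, against 0.0022 over all genes. The list was brighter than most genes, with a median level of 3.84 against 2.895 over all genes. Genes with a level of at least 4 had shares of 5.86% lower and 1.68% higher, and the splicing counts were not tested against these. Beside RBM42, GEMIN2 of the SMN complex had 2.54, 1.88 and 2.74 in leader cells, against 3.49, 3.56 and 3.66 in photoconverted cells, and SNRNP40, a U5 snRNP protein, had 2.54, 2.91 and 2.78 in leader cells, against 3.29, 3.79 and 3.42 in photoconverted cells. SNRPD1, a core snRNP protein, was the 1 member higher at an unadjusted p under 0.05. It had 5.72, 5.44 and 5.53 in leader cells, against 3.66, 3.97 and 4.26 in photoconverted cells. Its non-photoconverted mean was 5.76, and its follower values were 4.80, 6.17 and 3.73, the last of which lay within the photoconverted range.

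Ribosomal protein genes were mostly bright, with a median level of 5.23 over 46 cytosolic ones measured. Of these, 33 had a lower mean in leader cells, 4 were lower (8.7%) and 0 higher at an unadjusted p under 0.05, and the median difference was -0.093. Genes with a level of at least 4 had shares of 5.86% lower and 1.68% higher, and the ribosomal counts were not tested against these. RPL35A, the next after RPL14, had log2 values of 5.61, 5.17 and 5.49 in leader cells, against 6.0, 6.08 and 6.26 in photoconverted cells, while RPL35 and RPL8 differed by -0.91 (standard error 0.39) and -0.70 (standard error 0.32). A list of 71 mitochondrial ribosomal proteins was added after the values were seen. At an unadjusted p under 0.05, 1 was higher (1.41%, against 1.78% of all genes) and 3 were lower (4.23%, against 2.12%). MRPS14 had the widest gap of these, with 3.36, 2.10 and 3.27 in leader cells, against 4.37, 4.90 and 6.47 in photoconverted cells. The median of this list was -0.12 over all arrays and 0.041 without photoconverted replicate 2, so its direction rested on that array.

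The cell cycle lists had few members past the unadjusted threshold. The S phase list, with 26 members measured, had 3 lower (11.5%, against 2.12% of all genes) and 0 higher at an unadjusted p under 0.05 and a median of -0.060. MCM4, a subunit of the replicative helicase, had log2 values of 2.92, 2.80 and 3.07 in leader cells, against 4.35, 3.62 and 4.04 in photoconverted cells, without overlap. PCNA, the sliding clamp, and the nuclease FEN1 differed by -0.85 (standard error 0.36) and -0.73 (standard error 0.33), both with overlapping values. The G2 and mitosis list, with 38 measured, had 2 higher (5.26%, against 1.78% of all genes) and 0 lower and a median of 0.14. The 2 were CENPA and INCENP. INCENP was at 2.40, 3.15 and 2.95 in leader cells, against 2.25, 2.39 and 2.31 in photoconverted cells. Relative to non-photoconverted cells the G2 and mitosis median was -0.39 for leader and -0.44 for photoconverted cells, 2 comparisons that share the non-photoconverted arrays. The median level of the list was 2.98, 4.69 and 3.41 on those arrays, so non-photoconverted replicate 2 stood apart. On the leader arrays it was 2.93, 3.43 and 3.19, and on the photoconverted arrays 3.07, 2.98 and 3.17. How far non-photoconverted replicate 2 set these differences was not tested.

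Stress genes showed the same dependence on which invading cells served as the comparison. Of 16 heat shock genes measured, 13 had a higher mean in leader than in photoconverted cells and 0 had an unadjusted p under 0.05, with a median of 0.18. Against non-photoconverted cells the medians were -0.25 for leader and -0.55 for photoconverted cells. In the unfolded protein and integrated stress response list, with 20 measured, the amino acid synthesis enzymes ASNS and PSAT1 were higher and the kinase EIF2AK4 was lower at an unadjusted p under 0.05. These made 10% higher and 5% lower, against 1.78% and 2.12% of all genes. ASNS had log2 values of 4.81, 6.03 and 5.56 in leader cells, against 4.07, 4.0 and 3.79 in photoconverted cells. Its non-photoconverted values were 3.91, 7.17 and 4.52, so their mean of 5.20 was raised by replicate 2. Non-photoconverted replicate 1 lay within the photoconverted range of ASNS. PSAT1 had 4.13, 3.52 and 4.18 in leader cells, against 3.13, 2.71 and 2.74 in photoconverted cells, and a non-photoconverted mean of 4.10. EIF2AK4, the sensor of amino acid shortage also known as GCN2, differed by -0.84 (standard error 0.28).

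**Figure D4:**
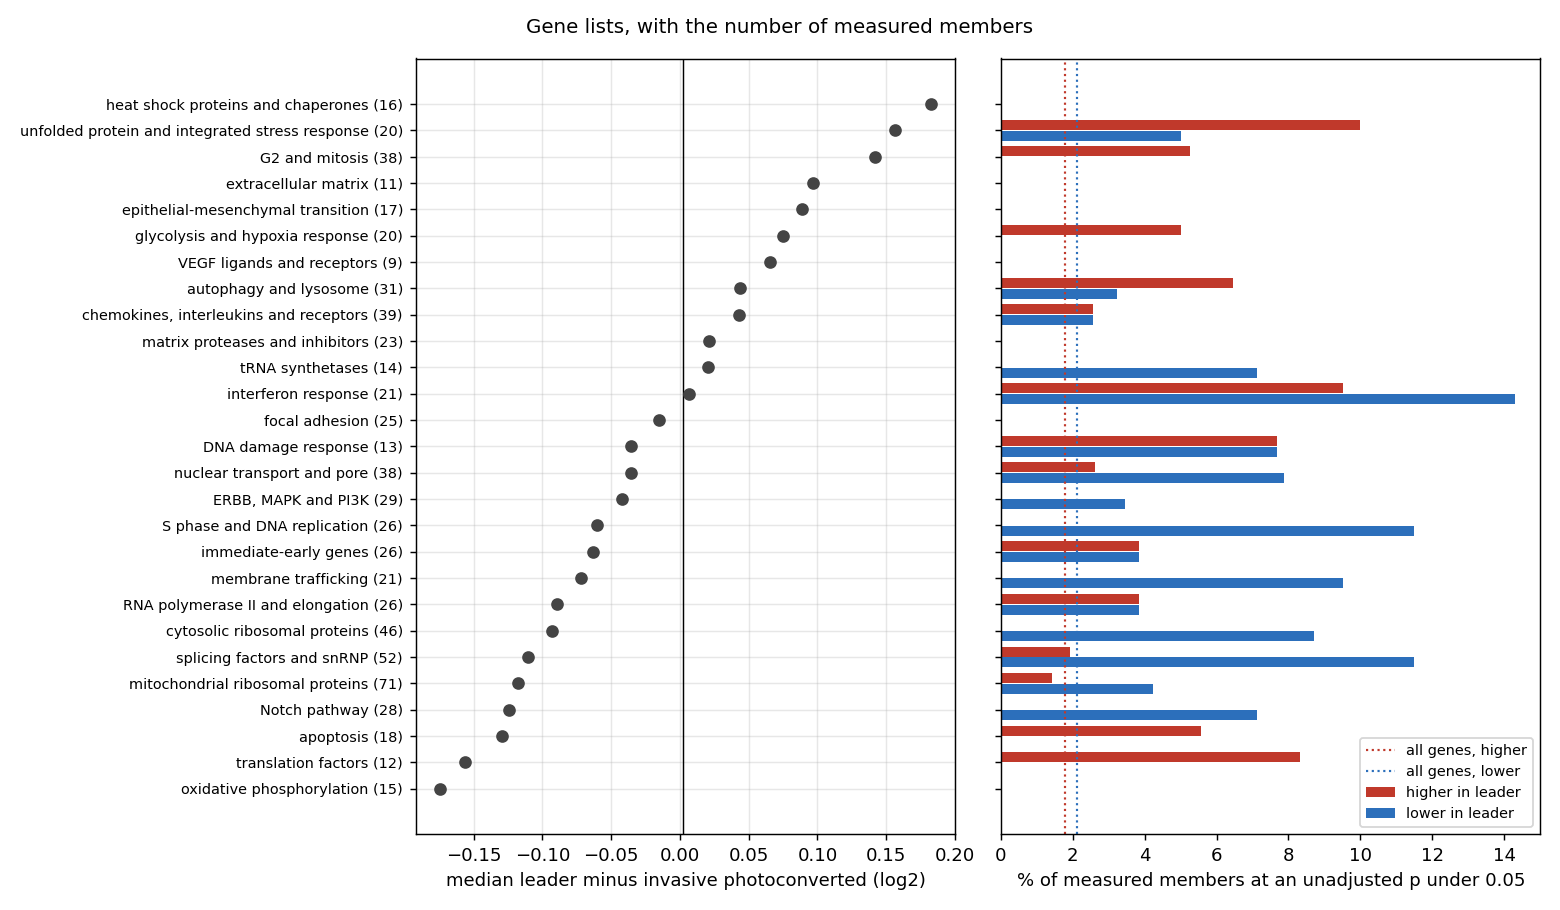
Median log2 difference between leader and invasive photoconverted cells (left, x axis) and percent of measured members at an unadjusted p under 0.05 in each direction (right, x axis) for 27 gene lists with 9 or more measured members, with lines at the values over all genes (median 0.0022, 1.78% higher, 2.12% lower). Splicing, ribosomal protein and S phase lists show more lower than higher members, and the VEGF, focal adhesion and heat shock lists show none in either direction.

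No VEGF ligand or receptor passed the unadjusted threshold between leader and photoconverted cells. VEGFA, the main ligand of endothelial growth, had log2 values of 3.51, 4.07 and 4.61 in leader cells, against 3.49, 3.25 and 3.93 in photoconverted cells, a difference of 0.51 (standard error 0.28) with overlapping values. Its follower and non-photoconverted means were lower still, at 3.13 and 3.23. Without leader replicate 3 the VEGFA difference was 0.23. The receptors FLT1, KDR and NRP1 differed by 0.07 (standard error 0.15), 0.45 (standard error 0.29) and 0.25 (standard error 0.17), among 9 ligands and receptors measured. Their mean levels over 12 arrays were 2.45, 2.72 and 2.86, below the median of 2.895 over all genes. Differences at such low levels do not show equal expression. KDR was highest on leader replicate 3 at 3.60, without which its difference was 0.15.

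Of 28 Notch pathway genes measured, 20 had a lower mean in leader cells, 2 were lower (7.14%, against 2.12% of all genes) and 0 higher at an unadjusted p under 0.05. The median difference was -0.12 over all arrays and -0.19 without leader replicate 2. RFNG, a glycosyltransferase that modifies Notch receptors, had log2 values of 1.83, 1.90 and 2.32 in leader cells, against 2.83, 2.36 and 2.64 in photoconverted cells, and the receptor NOTCH2 had 2.89, 2.78 and 2.44 in leader cells, against 3.23, 3.23 and 3.03 in photoconverted cells. The ligand JAG1 had 2.25, 2.32 and 2.34 in leader cells, against 2.62, 2.70 and 2.56 in photoconverted cells, with an unadjusted limma p of 0.06264. Mean levels over 12 arrays were 2.39 for RFNG, 2.95 for NOTCH2 and 2.43 for JAG1, against a median of 2.895 over all genes. The separations were small, and the RFNG groups nearly met, at 2.32 in leader cells and 2.36 in photoconverted cells. NOTCH1 and the ligand DLL4 differed by -0.11 (standard error 0.25) and -0.04 (standard error 0.23). DLL4 had a mean level of 2.38 over 12 arrays, too low for its small difference to show equal expression.

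FN1, PTK2 and VIM, genes of matrix, adhesion and the cytoskeleton, each had an unadjusted p of 0.05 or more. FN1, which encodes fibronectin, differed by 0.14 (standard error 0.23) and PTK2, the focal adhesion kinase, by -0.09 (standard error 0.39). FN1 had a mean level of 2.75 over 12 arrays, below the median of 2.895 over all genes. At so low a level its small difference does not show equal expression. None of the 25 focal adhesion genes measured had an unadjusted p under 0.05. VIM, the intermediate filament of mesenchymal cells, had log2 values of 6.48, 4.15 and 5.14 in leader cells, against 5.26, 6.70 and 6.84 in photoconverted cells, a difference of -1.01 (standard error 0.62) with overlap. It was -1.62 without leader replicate 1 and -0.46 without leader replicate 2.

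In the transport, interferon and autophagy lists few members passed the unadjusted threshold. Of 38 nuclear transport genes measured, 1 was higher (2.63%) and 3 were lower (7.89%) at an unadjusted p under 0.05. The shares over all genes were 1.78% and 2.12%. The import receptor IPO5 had log2 values of 3.11, 2.81 and 3.46 in leader cells, against 3.93, 5.01 and 5.07 in photoconverted cells, without overlap. CSE1L, which returns importin alpha to the cytoplasm, had 5.39, 4.18 and 5.34 in leader cells, against 2.98, 4.88 and 2.89 in photoconverted cells, and photoconverted replicate 2 was within the leader range. Of 21 membrane trafficking genes, 2 were lower (9.52%, against 2.12% of all genes) and 0 higher. Both were small GTPases of vesicle formation: ARF3 differed by -1.91 (standard error 0.71) and ARF4 by -1.13 (standard error 0.50), each with overlapping values.

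Of 21 interferon response genes, 2 were higher (9.52%, against 1.78% of all genes) and 3 lower (14.3%, against 2.12%) at an unadjusted p under 0.05. Their median was 0.0064, which was 0.13 without photoconverted replicate 2. The transcription factor IRF3 had log2 values of 2.80, 2.83 and 2.40 in leader cells, against 3.13, 4.15 and 3.33 in photoconverted cells, and the RNA sensor IFIH1 had 2.44, 2.32 and 2.78 in leader cells, against 3.15, 3.95 and 2.97 in photoconverted cells. IFIT5, which binds foreign RNA ends, had 4.19, 3.60 and 2.88 in leader cells, against 2.58, 2.65 and 2.84 in photoconverted cells, so members lay apart in both directions. Of 31 autophagy and lysosome genes, 2 were higher (6.45%) and 1 lower (3.23%), against the same shares over all genes. ATG3, the enzyme that attaches LC3 to lipid, had 2.89, 3.59 and 2.91 in leader cells, against 5.16, 5.69 and 3.70 in photoconverted cells, while ATG13, of the initiating kinase complex, had 3.28, 3.31 and 3.48 in leader cells, against 2.98, 3.04 and 2.80 in photoconverted cells. For ATG13 the leader values were also above all follower and non-photoconverted values, the highest of which was 3.12.

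The elongation factor gene SUPT4H1 showed a wider gap, with 3.28, 3.39 and 2.93 in leader cells, against 4.86, 6.33 and 4.01 in photoconverted cells. Its list of 26 RNA polymerase II genes had 1 higher and 1 lower at an unadjusted p under 0.05. Each was 3.85% of the list, against 1.78% higher and 2.12% lower over all genes. EEF2, the translation elongation factor that moves the ribosome, was higher by 0.59 (standard error 0.20), at 3.06, 3.75 and 3.71 in leader cells, against 2.97, 3.01 and 2.77 in photoconverted cells. Its non-photoconverted values of 3.52, 3.34 and 3.46 lay within the leader range.

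**Figure D5:**
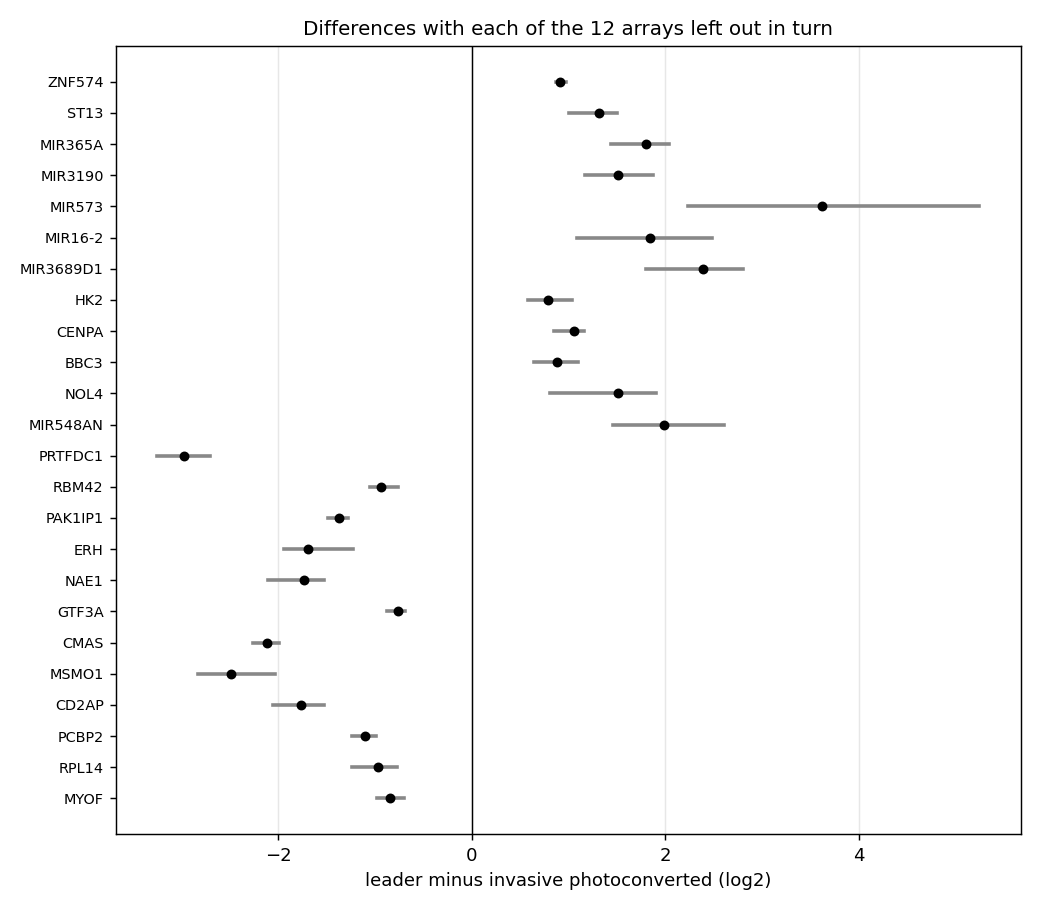
Log2 difference between leader and invasive photoconverted cells (x axis) for the 24 genes of the ranking, with the value over 12 arrays as a point and the range with each array left out in turn as a line. The choice of genes without overlap fixed the side of 0 on which a line lies; MIR573 has the longest, 2.23 to 5.24, and CMAS a short one, -2.26 to -1.99.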

How the data were processed

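RNA of 12 wells was amplified (Ovation One-Direct) and hybridised to Affymetrix arrays (Human Gene 2.0 ST). Deposited values were log2, which the authors had adjusted for GC content, RMA background corrected, quantile normalized and averaged per probeset; the submitters' processing notes name Partek 6.6. A build, not given in the sources used here, was not needed. Of 53617 probesets, 16098 carried 1 gene symbol; the others were not named, and genes outside that annotation were not analysed here. The brightest probeset stood for each of 14884 symbols. limma 3.58.1 in R 4.3.3 fitted 4 groups over 12 arrays. The ranking held the 12 higher and 12 lower genes with the smallest unadjusted p among genes without overlap and with a higher group mean of at least 4; up to 4 members per list and genes of the study were also named, others after their values were seen. Members and lists were chosen with earlier results of these data known. The test was tested on simulated data. The small number of arrays limits precision. RefSeq positions (GRCh38.p14) served to find neighbouring and enclosing genes, without regard to strand. Not every gene list examined is reported here.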

Additional observations from a re-analysis of the deposited data

How the results depend on the processing

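The count of called genes stayed at 0 under the other normalizations, filters, fits, array weights, the methods' t-test and without any follower or non-photoconverted array. It ranged from 0 to 4 with single arrays left out: MIR573 was called without leader replicate 3, and CLC, LINC00623, MGA and MIR626 without photoconverted replicate 1. The filter on level gave 317 genes at an unadjusted p under 0.05 (119 higher, 198 lower), where fewer genes were tested. With single arrays left out the number was 531 to 634, with 199 to 353 higher and 255 to 381 lower. Among genes with a level of at least 4, 8 to 38 were higher and 33 to 75 lower over all settings; that count was added after seeing the data. Some small differences changed sign. PTK2 was 0.024 with cyclic loess. Without single arrays PTK2 ranged over -0.46 to 0.15, DLL4 over -0.11 to 0.10, NOTCH1 over -0.36 to 0.21 and MIR365B over -0.022 to 0.44; the cause was not tested. The replicate block gave 629 genes at an unadjusted p under 0.05 and 0 called. Same-numbered leader and photoconverted arrays deviated with correlations of -0.0715 to -0.0342, so the numbers gave no sign of pairing.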
